A study of Mus musculus with 48 samples.

Results

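Ttr, Kl, Folr1, Aqp1, Otx2, Clic6, Kcnj13 and Slc4a5, a list of 8 genes known from the epithelium of the choroid plexus, were followed library by library through bulk RNA sequencing of mouse frontal cortex and hippocampus. All 8 were present among the 18428 genes of the deposited table, and none was absent. The libraries came from C57BL/6N mice in which 1 allele of Cyfip2 is inactivated (Cyfip2+/-, labelled HT) and from their WT littermates, at postnatal weeks (PWK) 1, 7, and 14. With 4 libraries for each region, genotype and age there were 12 groups and 48 libraries. Cyfip2 encodes a subunit of a complex that regulates actin, its deletion is constitutive, and no other allele or agent was given to either genotype. Values are normalized counts.

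The choroid plexus is a folded, vascular sheet of tissue in the brain ventricles, and its epithelial cells secrete the cerebrospinal fluid. In the lateral ventricle it is attached along the fimbria of the hippocampus, so a dissected hippocampus can carry a piece of it, whereas it is not attached to the frontal cortex. Neurons and astrocytes express little or no Ttr, which makes this transcript a usual marker of choroid plexus in brain tissue.

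Ttr (transthyretin, the carrier of thyroxine in the cerebrospinal fluid) lies on chromosome 18. Kl (Klotho, a co-receptor for the hormone FGF23) lies at chr5:150952607-150993817 and Folr1 (the high-affinity folate receptor) at chr7:101858331-101870788. The water channel Aqp1 lies at chr6:55336432-55348555 and Otx2, a homeodomain transcription factor required for choroid plexus development, at chr14:48657677-48673819. Clic6 (an intracellular chloride channel protein) lies at chr16:92485736-92541243, Kcnj13 (the inward rectifier potassium channel Kir7.1) at chr1:87386363-87394729 and Slc4a5 (the sodium bicarbonate cotransporter NBCe2) at chr6:83219828-83304945, all on GRCm38. Folr1, Otx2 and Kcnj13 overlap Anapc15, Otx2os1 and Gigyf2 on the other strand. Clic6 and Otx2 overlap 2410124H12Rik and Gm49154 on the same strand. The use of strand in the counting is not given in the sources used here, so low values of these genes in the cortex are uncertain.

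The samples matched their labels in the checks made. Cyfip2 in HT libraries was between 66.5% and 70.9% of the WT mean, without overlap in 6 of 6 comparisons. The summed level of 7 hippocampal marker genes was 26349 to 37776 in hippocampal and 8154 to 13880 in cortical libraries, and that of 6 frontal cortex genes 4355 to 8399 and 16810 to 23704. Library totals after normalization were 29.9 to 33.7 M (M, mega), which does not show the depth. Low values of single-transcript genes put it at an estimated 25.6 to 36.8 M read pairs.

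The hippocampal libraries carried far more of these transcripts than the cortical ones, and they carried very unequal amounts. The 8 genes together summed to between 135 and 29240 normalized counts (median 254) in cortical and to between 554 and 195838 (median 52207) in hippocampal libraries. As a share of the library total this was 0.000424% to 0.0904% in cortical and 0.00182% to 0.636% in hippocampal libraries. Ttr made up 37.5% to 95.0% of the hippocampal sum at PWK 1, 89.0% to 91.1% at PWK 7 and 65.9% to 92.1% at PWK 14. Per kilobase of exon, the median hippocampal level of Ttr was 11798, 52680 and 37050 at PWK 1, 7, and 14, far above the other members at each age. The order of these 7 was not the same at each age. At PWK 1 the level per kilobase was 63.9 for Aqp1, 51.6 for Clic6, 50.9 for Folr1, 45.8 for Kl and 40.2 for Kcnj13. At PWK 7 it was 393 for Kcnj13, 355 for Clic6, 329 for Kl, 212 for Folr1 and 140 for Aqp1. At PWK 14 it was 248 for Kcnj13, 239 for Clic6, 238 for Kl, 122 for Folr1 and 93.5 for Aqp1. Slc4a5 (13.4 to 90.2) and Otx2 (13.2 to 63.1) were lowest at each age, and these orders were not tested. In bulk tissue, fewer cells of a type and less RNA per cell cannot be told apart.

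In the hippocampus at PWK 1, Ttr was 59594, 59936, 363 and 11748 in HT replicates 1 to 4 and 208, 17071, 1500 and 16236 in WT replicates 1 to 4. HT replicate 3 and WT replicate 1 were thus the closest to the cortical libraries, which had at most 86.0 at this age. HT replicates 1 and 2 were at adult hippocampal levels. At PWK 7, Ttr was 44479, 84198, 170063 and 69477 in HT and 49244, 55480, 72623 and 27802 in WT libraries. No hippocampal library was low at this age, and the highest value was 3.82 times the lowest in HT and 2.61 times in WT mice. At PWK 14, Ttr was 12445, 4499, 180338 and 62999 in HT and 63259, 1783, 24884 and 111088 in WT libraries. The spread was wide again, with the highest library 40.1 times the lowest in HT and 62.3 times in WT mice, and the genotypes overlapped at each age.

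In the cortex, Ttr was at most 669 in 22 of 24 libraries. At PWK 1 it was 17.5, 9.45, 0 and 66.6 in HT and 27.0, 86.0, 11.3 and 17.7 in WT libraries. At PWK 7 it was 80.9, 40.6, 187 and 130 in HT and 128, 270, 669 and 34.1 in WT libraries. At PWK 14 it was 259, 366, 79.0 and 1394 in HT and 26615, 235, 160 and 28.2 in WT libraries. WT replicate 1 at PWK 14 stood far above the rest and lay within the hippocampal range, and HT replicate 4 came next. The plot of Ttr by library shows both regions on the same scale.

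**Figure D1:**
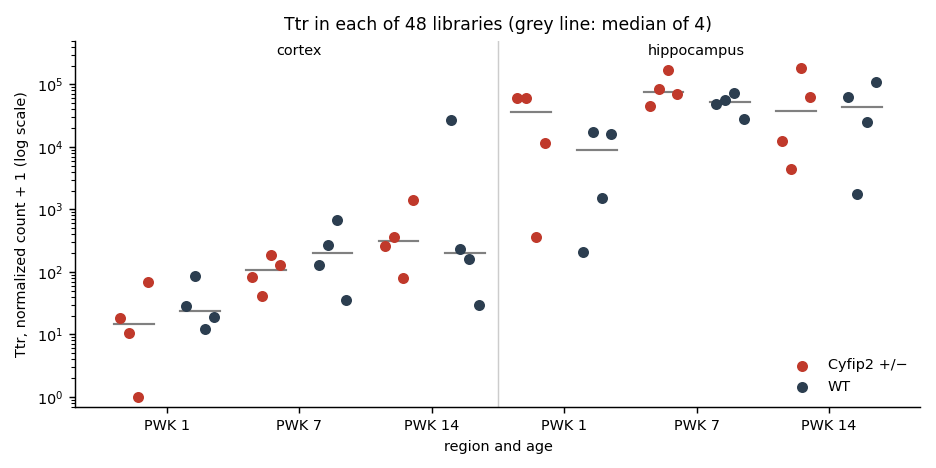
Ttr in normalized counts plus 1 (vertical axis, log scale) in each of the 48 libraries, by region and age (horizontal axis), with 4 points per group, red for Cyfip2+/- and dark for WT, and a grey line at the group median. Cortical values stay at or below 1394 except 26615 in 1 WT library at PWK 14, and hippocampal values run from 208 to 180338.

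The same cortical library, WT replicate 1 at PWK 14, was the highest of its group for all 8 genes. Kl was 1029 there and 70.4, 101 and 74.7 in replicates 2 to 4. Clic6 was 569 against 29.1, 23.3 and 20.8, and Kcnj13 was 275 against 47.0, 36.3 and 35.2. Slc4a5 was 263 against 2.07, 6.17 and 0, Folr1 was 193 against 4.98, 6.26 and 8.57, and Otx2 was 126 against 2.59, 10.8 and 0. Aqp1 was 170 against 17.2, 79.9 and 10.5, the smallest separation of the 8. The sum of 24 other choroid plexus genes was 29505 in this library and 9598 to 11912 in the other replicates. The sums of other marker lists differed less. Here 10 ependymal genes summed to 2577 against 1876 to 2108, and 10 genes of the leptomeninges to 26475 against 24045 to 24637. The 7 hippocampal genes summed to 8558 against 9415 to 13880. Pltp alone had a mean of 1651 over the cortical libraries, where the ependymal sum had a median of 2040. Ptgds had a mean of 14818, against a median leptomeningeal sum of 20826. A rise in the rarer genes of these lists could thus be missed and was not tested.

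In the hippocampus the highest sum of the 8 genes in a group was 93.3 times the lowest in HT and 33.1 times in WT mice at PWK 1, 3.80 and 2.55 times at PWK 7, and 34.6 and 44.8 times at PWK 14. In the cortex it was 1.45 and 1.75 times at PWK 1, 1.78 and 5.46 times at PWK 7, and 6.34 and 164 times at PWK 14. Without Ttr the ranges were narrower in each group. The sum of the other 7 genes differed in the hippocampus by 11.2 and 3.78 times at PWK 1, 3.54 and 2.08 times at PWK 7, and 13.3 and 10.9 times at PWK 14. In the cortex it differed by 1.04 to 1.70 times in 5 of 6 groups and by 17.5 times in WT mice at PWK 14. As a residual SD of log2(value + 1) about the group means, Ttr varied by 2.41 in the hippocampus, rank 26 of 17850 genes, and by 2.33 in the cortex, rank 36 of 17789. The median of all genes was 0.145 and 0.143. The other members varied in the hippocampus by 1.98 (Slc4a5), 1.95 (Clic6), 1.81 (Folr1), 1.73 (Aqp1), 1.69 (Otx2), 1.62 (Kcnj13) and 0.86 (Kl). In the cortex they varied by 0.63 (Kcnj13) to 1.53 (Slc4a5), and Otx2 was too low to be included. Without WT replicate 1 at PWK 14 the cortical SD was 1.71 for Ttr, 0.76 for Slc4a5, 0.42 for Clic6, 0.28 for Kl and 0.28 for Kcnj13.

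**Figure D2:**
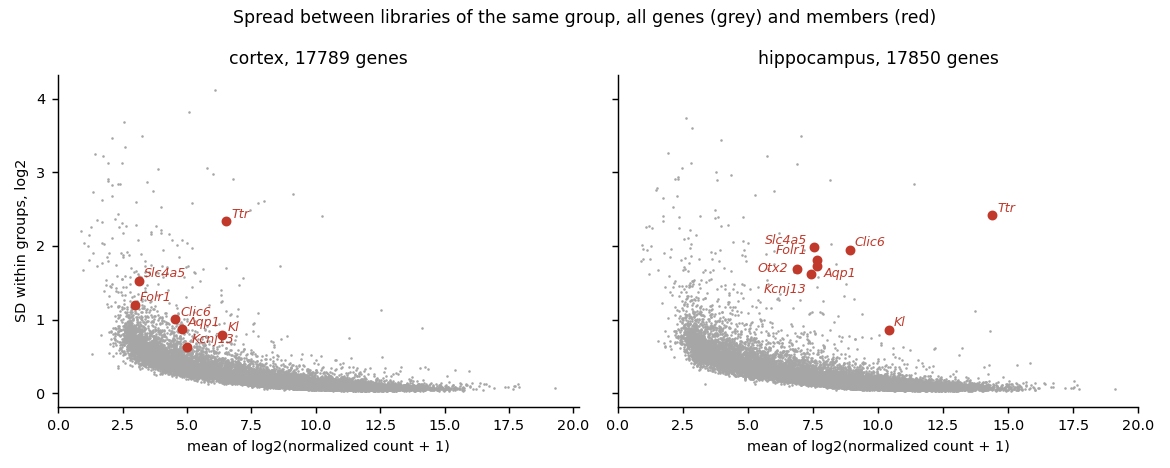
Residual SD of log2(normalized count + 1) about the 6 group means of a region (vertical axis) against the mean log2 value (horizontal axis), with a grey point per gene and the choroid plexus genes in red. Ttr stands at 2.33 in cortex and 2.41 in hippocampus, and Kl in the hippocampus, at 0.86, is the lowest of the 8 there.

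The remaining genes were low and high in much the same hippocampal libraries as Ttr. At PWK 1, replicate 3 was the lowest and replicate 4 the next of the 4 HT libraries for all 8 genes. Among the WT libraries, replicates 1 and 3 were below replicates 2 and 4. Which of WT replicates 1 and 3 was lowest, and which of the other two highest, differed between genes: Kcnj13 was 17.2 in WT replicate 1 and 8.39 in replicate 3, the reverse of Ttr. At the same age, Clic6 was 797, 700, 7.45 and 165 in HT and 16.3, 253, 40.4 and 239 in WT libraries. Kl was 699, 672, 245 and 417 in HT and 250, 452, 307 and 437 in WT libraries, so its floor was much higher. HT replicate 3 was the lowest HT library and replicates 1 and 2 the highest for both genes. At PWK 14, Slc4a5 was 100, 30.1, 1563 and 662 in HT and 529, 16.2, 202 and 855 in WT libraries. Folr1 was 83.9, 37.0, 1015 and 363 in HT and 443, 19.8, 198 and 770 in WT libraries. At this age all 8 genes ranked the 4 HT libraries alike and the 4 WT libraries alike, with HT replicate 3 and WT replicate 4 highest and HT replicate 2 and WT replicate 2 lowest. The plot of all 8 genes by library shows this for each gene.

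**Figure D3:**
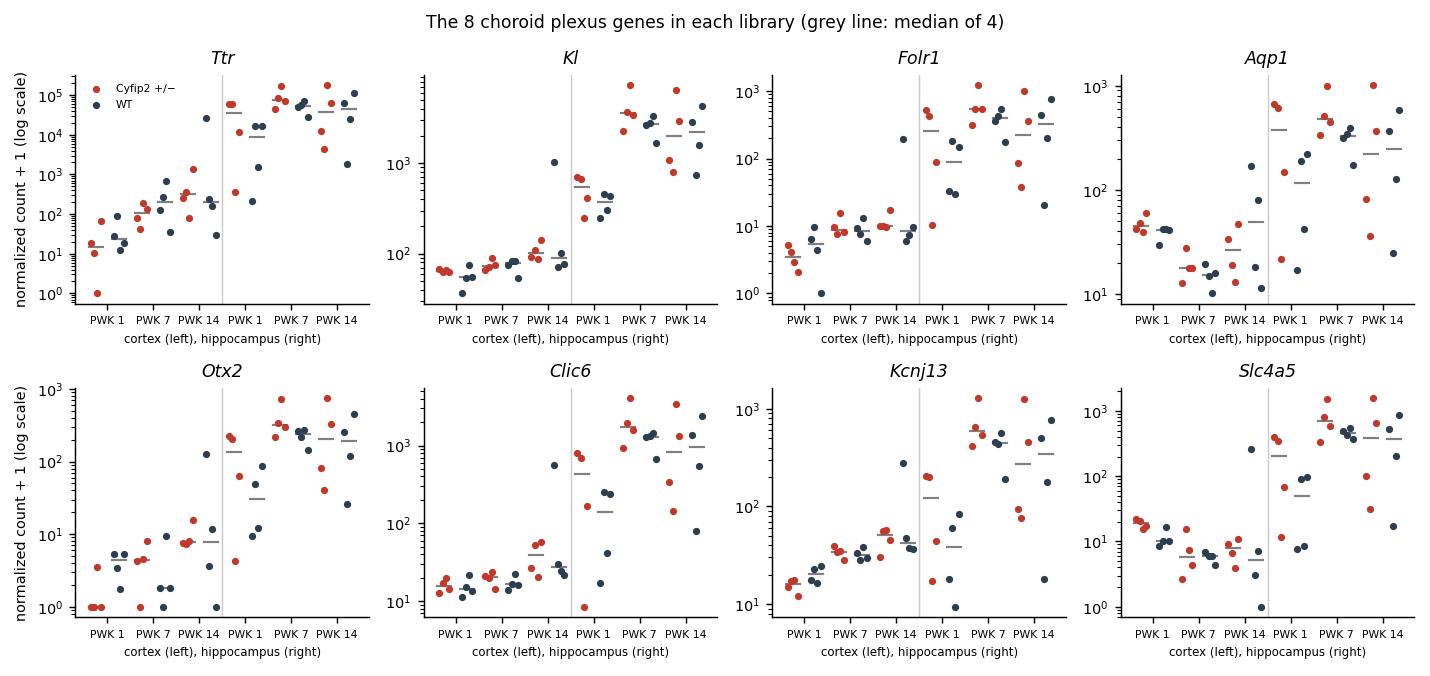
Normalized count plus 1 (vertical axes, log scale) of each of the 8 genes in the 48 libraries, by region and age (horizontal axes), red for Cyfip2+/- and dark for WT, with a grey line at the median of 4. The hippocampal libraries spread more widely at PWK 1 and 14 than at PWK 7, except for Kl, whose PWK 1 libraries lie within 2.85-fold (HT) and 1.81-fold (WT), and WT replicate 1 at PWK 14 is the highest cortical library.

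Whether genes followed Ttr within groups was tested with limma over the 24 libraries of a region, with the 6 group means removed and the slope in log2 of a gene per log2 of Ttr. In the hippocampus 7 of 7 other members rose with Ttr, where 1.00% of the 17849 genes tested did. The slope was 0.80 ± 0.03 (SE) for Clic6, 0.79 ± 0.05 for Slc4a5, 0.72 ± 0.05 for Folr1, 0.70 ± 0.03 for Aqp1, 0.68 ± 0.04 for Otx2, 0.61 ± 0.06 for Kcnj13 and 0.30 ± 0.04 for Kl. Adjusted p by limma ran from 3.63e-15 for Clic6, which had the smallest p of all genes, to 8.04e-05 for Kl. These genes were listed because they share a tissue, so the count is no test of that list.

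Genes outside the list with the smallest p were Mfrp (0.82 ± 0.04), Prr32 (0.77 ± 0.04), 2900040C04Rik (0.78 ± 0.04), Defb11 (0.76 ± 0.05) and Kcne2 (0.77 ± 0.05), followed by Tmem72, Cldn2, Sulf1, Rbm47 and Cdh3. Kcne2 is a potassium channel subunit and Cldn2 a tight junction protein, both known from choroid plexus epithelium. Of the 24 other choroid plexus genes, 19 rose with Ttr, against 1.00% of all genes. Their median slope was 0.39, against -0.002 over all genes. This list too was chosen with earlier results of these data known, so no count over it is a test of the list. The most abundant were Enpp2, which makes lysophosphatidic acid, with 0.41 ± 0.05 (limma adjusted p = 8.73e-06), and Trpm3, a cation channel, with 0.21 ± 0.03 (limma adjusted p = 7.26e-05). Slc29a4 had 0.05 ± 0.01 and did not pass (limma adjusted p = 0.107). The 9 genes that fell as Ttr rose had slopes of -0.07 to -0.03, and Gpld1, Lifr, Ndst3, Pou6f1 and Rapgef4 had the smallest p among them.

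Fewer genes of the other marker lists rose with Ttr in the hippocampus, where 1.00% of all genes did. Of 10 ependymal genes, which mark the ciliated lining of the ventricles, 3 rose, namely Pltp (0.05), Rsph1 (0.13) and Cfap126 (0.22). The median slope of these 10 genes was 0.10, against -0.002 over all genes. Of 10 genes of the leptomeninges and vascular fibroblasts none rose or fell (median slope 0.03), and Igf2, which choroid plexus stroma also expresses, had 0.15 ± 0.04 (limma adjusted p = 0.0918). None of 6 erythrocyte, 10 thalamic, 6 endothelial, 7 hippocampal and 6 frontal cortex genes passed, and of 10 striatal and septal genes only Ppp1r1b rose (0.11). The summed ependymal level was 1836 to 4746 over the hippocampal libraries and 1406 to 2639 over the cortical ones, and no listed gene was at 0 in all libraries. The part of ependymal RNA in the results for the 8 genes was not tested.

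In the cortex, 0 of 6 members tested passed, as did 0 of 17788 genes by limma, of which 936 had an unadjusted p below 0.05. The slopes were 0.47 ± 0.10 for Slc4a5, 0.35 ± 0.09 for Folr1, 0.30 ± 0.07 for Clic6, 0.25 ± 0.05 for Kl, 0.23 ± 0.06 for Aqp1 and 0.17 ± 0.05 for Kcnj13 (limma adjusted p from 0.194 to 0.781). The genes with the smallest p were Gm29609, Col9a3, F5, Zfp820, Mfrp, Dsp, Vrk2, Trpv4, Slc4a2 and Slc2a12 among rising and Zfp777, Adgrl4, Gm20427, Btaf1 and Gm8108 among falling ones. For 5 of these 6 genes the slopes rest on 1 library: without WT replicate 1 at PWK 14 they were 0.13 for Slc4a5, 0.11 for Aqp1, 0.05 for Clic6 and Kl, and -0.01 for Kcnj13. Folr1, which reached 10 in only 4 cortical libraries, was too low to be fitted without it. Without HT replicate 3 at PWK 1, in which Ttr was listed at 0, Kl (0.30, limma adjusted p = 0.0211) and Clic6 (0.38, limma adjusted p = 0.0236) passed.

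On the linear scale the hippocampal libraries of each age fell close to a straight line against Ttr. Over the 8 libraries of an age, Pearson's r was 0.976 to 0.999 and Spearman's rho 0.857 to 1 for 21 relations of 7 genes at 3 ages. Adjusted exact permutation p was 0.000130 to 0.00104 for r and 0.000260 to 0.0107 for rho. Without the 2 libraries farthest from the median Ttr, r was 0.863 to 0.999.

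The slope of that line is the amount of a transcript that came with each 1000 counts of Ttr. Compared between PWK 1 and 7 by permutation of the age labels, 5 of 7 genes passed. Kl gained 6.81 ± 0.63 (SE) counts per 1000 of Ttr at PWK 1, 39.6 ± 1.2 at PWK 7 and 32.0 ± 0.7 at PWK 14. The slope was 5.81 times higher at PWK 7 than at PWK 1 (exact permutation of the age labels over 16 libraries, adjusted p = 0.00381 over 14 comparisons). For Kcnj13 it was 3.21, 7.28 and 6.87, a ratio of 2.27 (adjusted exact p = 0.00363), and for Clic6 12.2, 23.8 and 19.3, a ratio of 1.94 (adjusted exact p = 0.00363). For Slc4a5 it was 6.20, 8.74 and 8.52, a ratio of 1.41 (adjusted exact p = 0.0331). Aqp1 went the other way, with 10.3, 5.56 and 5.50, a ratio of 0.54 (adjusted exact p = 0.00363). These permutations move whole libraries between ages. Their p-values thus also take in differences in level and in the range of Ttr, and not the slope alone.

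Folr1 (7.65, 7.28 and 5.80) and Otx2 (3.49, 4.02 and 3.98) did not pass between PWK 1 and 7 (adjusted exact p = 0.704 and 0.222). Between PWK 7 and 14 none of the 7 genes passed (adjusted exact p from 0.464 to 0.874), with ratios of 0.80 to 0.99. The line for Kl met a Ttr level of 0 at 293 ± 20 counts at PWK 1, 577 ± 98 at PWK 7 and 746 ± 54 at PWK 14. For the other genes this level was at most 91.0, at PWK 14 for Clic6.

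**Figure D4:**
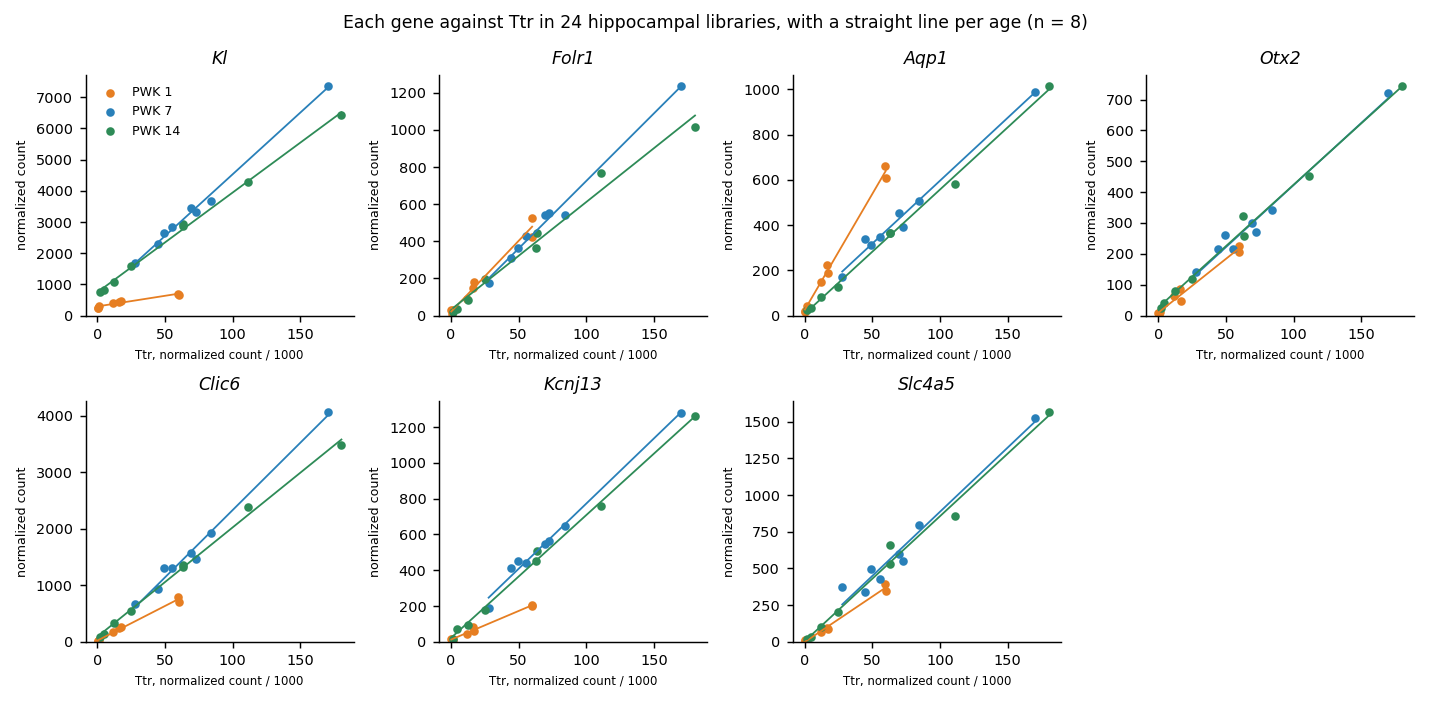
Normalized count of 7 genes (vertical axes) against Ttr in normalized counts divided by 1000 (horizontal axes) in the 24 hippocampal libraries, with a straight line for each age (n = 8; orange PWK 1, blue PWK 7, green PWK 14). The PWK 1 line is flatter than the adult lines for Kl, Clic6 and Kcnj13, with slopes of 6.81, 12.2 and 3.21 per 1000, and steeper for Aqp1, with 10.3.

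The promoter windows of Kcnj13 and Otx2 are shown because Otx2 is the transcription factor in the list, and the core TAATC of its known recognition letters, TAATCC, was found there. The Otx2 window holds the full TAATCC, and the Kcnj13 window holds the core only. In total, 8 windows of 250 bases upstream of an annotated start were read from RefSeq (GRCm38.p6) for 5 members. Several of them belonged to Otx2, and both strands were searched. Folr1, Clic6 and Ttr are not shown. On either strand, 19.8% of all 32851 promoter windows hold TAATC and 6.25% hold TAATCC, which contains it. These shares are per window, so they compare with the 8 windows read and not with the 5 members. Whether the letters are more frequent in the windows read was not tested. Both windows below are on the minus strand and run 5′ to 3′ up to the start, with the core in capitals as its reverse complement.
Kcnj13, chr1:87394730-87394979: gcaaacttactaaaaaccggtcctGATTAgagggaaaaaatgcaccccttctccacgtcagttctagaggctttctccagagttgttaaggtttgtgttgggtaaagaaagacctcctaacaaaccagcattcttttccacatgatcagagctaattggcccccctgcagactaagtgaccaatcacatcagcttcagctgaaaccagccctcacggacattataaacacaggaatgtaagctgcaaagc
Otx2, chr14:48665110-48665359: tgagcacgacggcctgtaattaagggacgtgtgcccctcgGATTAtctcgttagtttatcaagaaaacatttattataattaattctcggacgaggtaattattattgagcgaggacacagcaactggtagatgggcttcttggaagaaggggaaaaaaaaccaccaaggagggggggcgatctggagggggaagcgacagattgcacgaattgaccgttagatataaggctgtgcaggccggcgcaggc
The core begins 226 bases before the start of Kcnj13 and 210 bases before this start of Otx2. The windows of Kl, Aqp1 and Slc4a5 and the other Otx2 windows read do not hold these letters.

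Next, HT were compared with WT libraries at each region and age, to see whether the genotypes differed in these genes. None of the members tested was called, that is, had a limma adjusted p below 0.05. Only 0.00602%, 0.0178% and 0.00591% of all genes were called in cortex at PWK 1, 7, and 14. In hippocampus the shares were 0.0119%, 0.00590% and 0.00592%. Of the 8 members, 6 passed the filter of 10 counts in 4 libraries for cortex at PWK 1 and 5 each at PWK 7 and 14. Folr1 and Otx2 were too low there at each age, and Slc4a5 at PWK 7 and 14. No member separated the genotypes without overlap, as 8.02%, 3.04% and 4.14% of genes did in cortex and 6.06%, 2.26% and 3.64% in hippocampus.

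Ttr had a log2 difference (HT minus WT) of -1.35 ± 1.05 (SE), -0.82 ± 0.74 and -0.37 ± 1.64 in cortex at PWK 1, 7, and 14. For hippocampus it was 1.86 ± 1.72, 0.75 ± 0.37 and 0.26 ± 1.35. With errors of this size and adjustment over all genes, a change of several-fold in Ttr could be missed at each age. In the hippocampus at PWK 7, where the error for Ttr was the smallest of the 6 comparisons, the members had differences of 0.59 (Kl) to 0.84 ± 0.32 (Aqp1), none of which passed (limma adjusted p = 0.9997 for each). The unadjusted p was 0.0221 for Aqp1 and 0.0470 for Otx2 there, and 0.0263 for cortical Slc4a5 at PWK 1 (0.77 ± 0.30), which reached 10 in 4 of 4 HT and 1 of 4 WT libraries. HT replicate 3 had the highest value of each gene in the hippocampus at PWK 7. The 24 other choroid plexus genes had a median difference of 0.62 in the same comparison, against 0.0006 over all genes, and 0 of 24 were called. Since the members rise and fall together between libraries, the same sign in several of them is not repeated evidence. The plot of differences between genotypes gives all values.

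**Figure D5:**
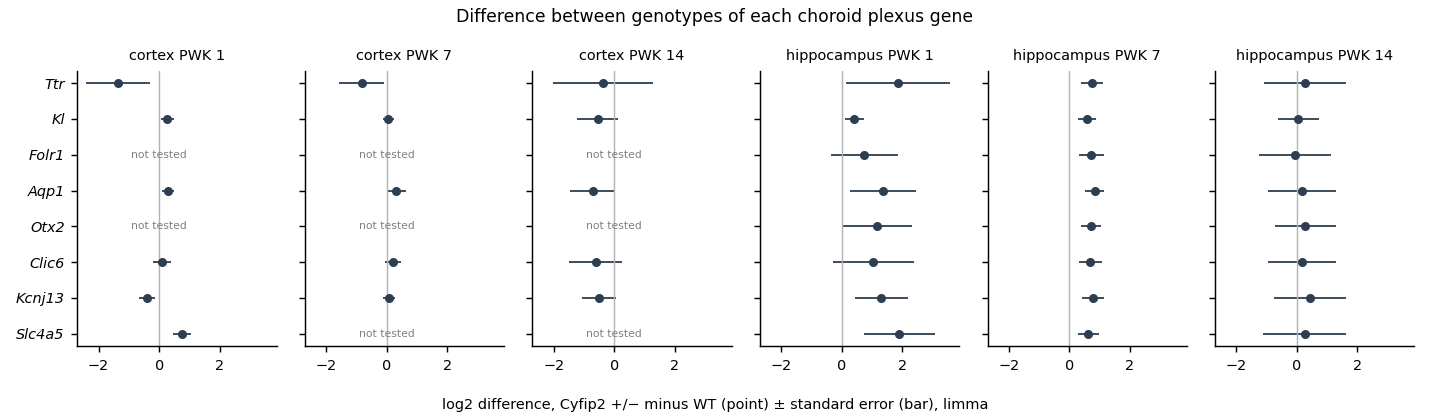
Log2 difference between Cyfip2+/- and WT libraries (horizontal axes; point, limma estimate; bar, standard error) for each of the 8 genes (vertical axis) in the 6 comparisons of 4 against 4 libraries. The widest errors of all are those of Ttr for hippocampus at PWK 1, 1.72, and for cortex at PWK 14, 1.64. No difference passed the test.

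Between the regions, the members were higher in the hippocampus at all ages. At PWK 1, 7 of 8 were called higher, against 23.7% of all genes. The log2 differences (hippocampus minus cortex) were 8.41 ± 1.16 for Ttr, 4.63 ± 0.70 for Folr1, 4.16 ± 0.76 for Otx2, 2.92 ± 0.75 for Clic6, 2.79 ± 0.20 for Kl, 1.88 ± 0.67 for Slc4a5 and 1.44 ± 0.52 for Kcnj13. Aqp1 had 1.47 ± 0.61 (limma adjusted p = 0.0541). At PWK 7, 8 of 8 were called higher, against 30.0% of genes, from 3.93 ± 0.23 for Kcnj13 to 8.95 ± 0.49 for Ttr, and at PWK 14, 8 of 8, against 26.2%, from 2.00 ± 0.71 for Kcnj13 to 6.15 ± 1.18 for Ttr. Folr1 and Otx2 at each age, and Slc4a5 at PWK 7 and 14, passed the filter on low values through their hippocampal libraries, so for them a difference was required by the filter.

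How far the regions were apart in single libraries differed between ages. At PWK 7 the regions did not overlap for any of the 8 genes, where 29.5% of genes were so separated. At PWK 1 they did not overlap for Ttr, Kl and Folr1, where 19.9% of genes were so separated. At PWK 14 they overlapped for all 8, where 22.7% of genes were separated. For Ttr, Kl, Folr1, Otx2, Clic6 and Slc4a5 the overlap came from cortical WT replicate 1 alone. Ttr, for instance, was at most 1394 in the other cortical libraries and at least 1783 in the hippocampal ones. Aqp1 and Kcnj13 overlapped without that library as well. The calls for Kcnj13 and Slc4a5 at PWK 1 were lost when any of hippocampal HT replicates 1 and 2 or WT replicates 2 and 4 was left out, the highest libraries, with limma adjusted p of 0.0513 to 0.0643, and that for Kcnj13 also without cortical HT replicate 4 (0.0558). Aqp1 was called without hippocampal HT replicate 3 (0.00520) or WT replicate 1 (0.0123) or 3 (0.0420). At PWK 14 Kcnj13 was lost without hippocampal HT replicate 3 (0.0545) or WT replicate 4 (0.0540).

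The hippocampal level of the whole list was higher at PWK 7 than at PWK 1. The amount of choroid plexus carried over is not known apart from such genes. A change with age and a change in carry-over thus cannot be told apart. All 8 genes were called higher, against 35.4% of genes. The increases in log2 were 3.64 ± 0.77 for Clic6, 3.43 ± 0.98 for Ttr, 3.42 ± 0.69 for Slc4a5, 3.40 ± 0.52 for Kcnj13, 2.94 ± 0.24 for Kl, 2.80 ± 0.66 for Otx2, 2.29 ± 0.65 for Folr1 and 1.73 ± 0.63 for Aqp1. Of the 24 other choroid plexus genes, 23 rose, with a median of 1.83 against 0.01 over all genes. From PWK 7 to 14 none of the 8 was called by limma, where 9.33% of genes were in either direction. Their values were -1.38 to -0.66, with unadjusted p from 0.0772 to 0.145.

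In the cortex the genes did not move together between PWK 1 and 7. Ttr rose by 2.90 ± 0.71 (limma adjusted p = 0.00121), Kcnj13 by 0.91 ± 0.16 (limma adjusted p = 3.61e-05) and Kl by 0.32 ± 0.14 (limma adjusted p = 0.0447), against 36.1% of genes called higher. Aqp1 fell by 1.38 ± 0.18 (limma adjusted p = 1.19e-06) and Slc4a5 by 1.3 ± 0.31 (limma adjusted p = 9e-04), against 36.0% called lower, and Clic6 had 0.24 ± 0.18. Slc4a5 reached 10 in 5 of 8 libraries at PWK 1 and 1 of 8 at PWK 7, so it passed the filter on low values through PWK 1 and the filter favoured a fall. Aqp1 was 28.8 to 59.6 in the cortical libraries of PWK 1 and 9.17 to 26.7 in those of PWK 7, without overlap. The call for Kl was lost when any of 11 single libraries of the 16 was left out. From PWK 7 to 14, 0 of 6 members passed in the cortex (limma adjusted p from 0.0776 to 0.478), where 21.1% of genes did. Clic6 passed (0.74, limma adjusted p = 0.0292) when WT replicate 1 at PWK 14 was left out.

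The difference between the regions itself grew from PWK 1 to 7 for 5 of 8 members, where 13.6% of genes had a growing difference. The change in log2 was 4.72 ± 1.17 for Slc4a5, 3.40 ± 1.02 for Clic6, 3.11 ± 0.90 for Aqp1, 2.62 ± 0.55 for Kl and 2.48 ± 0.81 for Kcnj13 (limma adjusted p from 0.000219 to 0.0184). It was 2.43 ± 1.07 for Otx2, 0.98 ± 1.02 for Folr1 and 0.54 ± 1.57 for Ttr, which did not pass (limma adjusted p = 0.0869, 0.534 and 0.847). For Slc4a5 and Aqp1 the cortical changes of -1.3 and -1.38 are part of these values. Cortical Slc4a5 reached 10 in 1 of 8 libraries at PWK 7, so its value rests in part on low counts. From PWK 7 to 14 the change was -2.80 to -1.46, and 0 of 8 passed, where 5.02% of genes did. Kl passed there (-1.74, limma adjusted p = 0.0409) without hippocampal HT replicate 3 at PWK 14.

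Finally, cortical and hippocampal libraries of the same genotype, age and replicate number were compared, to see whether a high level went with the label or with the piece of tissue. Over 24 labels, with the group means removed, Pearson's r of the log2 levels was 0.26 for Ttr (permutation p = 0.331, adjusted 0.943 over 8 genes) and Spearman's rho 0.28 (permutation p = 0.234, adjusted 0.468). Without the 2 labels farthest from the median, r for Ttr was 0.39. The other genes had r of -0.05 to 0.29, and none passed (adjusted permutation p = 0.943). WT replicate 1 at PWK 14, the cortical library with Ttr at 26615, had 63259 in the hippocampus, whereas hippocampal HT replicate 3 at PWK 14, with the highest Ttr of all, had 79.0 in the cortex. The labels do not state that a shared number marks 1 mouse.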

How the data were processed

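Frontal cortex and hippocampus of both hemispheres of Cyfip2+/- and WT mice of both sexes were sequenced as paired reads. The study names a stranded total RNA kit and the labels the mRNA kit of the same series. The authors estimated transcript abundance with Salmon (0.11.2 in the submitters' processing notes) on GRCm38, imported it to genes with tximport and normalized it with DESeq2. The deposited values are normalized counts, a linear signal without a recorded depth. Whole reads were not recovered: between 29.0% and 63.2% of low values per library lay within 0.1 of a whole multiple of a step. Ensembl IDs were matched to GENCODE vM21 (18414 matched, 14 not). Library columns were assigned by their names, and 4 libraries per group are separate samples in the labels, so p-values measure the spread between these samples.

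Tests used limma 3.58.1 (R 4.3.3, lmFit, eBayes with trend) on log2(value + 1), with Benjamini-Hochberg adjustment over all genes that reached 10 in at least 4 fitted libraries. A fold on this scale understates the change of low genes. Region and age fits had genotype as a covariate. The change of a region difference between ages came from 12 group means over 48 libraries. A count test was not run, because the values are normalized. Permutation tests were two-sided, exact or with 100000 resamples. Genes to be named were the members, Cyfip2, the 10 rising and 5 falling genes with the smallest p against Ttr, and counts over marker lists. The members and lists were chosen with earlier results of these data known. Steps were tested on simulated data. Alternatives were pseudocounts of 0.1 and 10, no filter, median-of-ratios scaling, 1 model of 48 libraries, WT libraries only, the replicate number as a block, Folr1 in place of Ttr, both regions together, and leaving out each library. The lines against Ttr and the comparison of their slopes between ages were added after the data were seen. The precision rests on 4 libraries per group.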

Additional observations from a re-analysis of the deposited data

Results flagged for a closer look

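In groups of 4 libraries, 12 values of 96 groups tested stood apart from the other 3, where chance gives about 1 in 20 groups if they are independent, which genes of the same libraries are not. Of these, 7 belonged to cortical WT replicate 1 at PWK 14, with Ttr at 26615 (28.2 to 235 in the others), Kl at 1029 (70.4 to 101), Folr1 at 193 (4.98 to 8.57), Otx2 at 126 (0 to 10.8), Clic6 at 569 (20.8 to 29.1), Kcnj13 at 275 (35.2 to 47.0) and Slc4a5 at 263 (0 to 6.17). In cortical HT replicate 4 at PWK 14, Folr1 was 16.01 (8.76 to 9.09) and Otx2 14.6 (6.36 to 6.95). Otx2 was 2.54 in cortical HT replicate 3 at PWK 1, where the others were listed at 0, and 8.44 (0 to 0.80) in cortical WT replicate 3 at PWK 7, both values too low to be read. Aqp1 was 28.8 in cortical WT replicate 1 at PWK 1, below the others (40.2 to 41.4).

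The difference between hippocampus and cortex changed from PWK 1 to 7, by limma's test of that change, for Kl (2.62), Aqp1 (3.11), Clic6 (3.40), Kcnj13 (2.48) and Slc4a5 (4.72). For Aqp1 and Slc4a5 a fall in the cortex is part of the change.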

How the results depend on the processing

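No call of a member that passed the filter changed under median-of-ratios scaling, without the filter or with a pseudocount of 0.1. Members that had not passed the filter had no main result to be compared with. In WT libraries only, which are fewer, 4 of 6 members tested were called in place of 7 of 8 (hippocampus against cortex at PWK 1). At PWK 14, 5 of 8 were called in place of 8 of 8. At PWK 1 Aqp1 passed with a pseudocount of 10 (limma adjusted p = 0.0402) and Slc4a5 did not in a model of 48 libraries (0.0562), and Otx2 passed for the change of the region difference from PWK 1 to 7 with a pseudocount of 10 (0.0191). For cortex from PWK 1 to 7, 1 of 6 members tested was called in a model of 48 libraries and 3 of 5 in WT libraries only, in place of 5 of 6. Cortical genes called with Ttr numbered 4 of the members with a pseudocount of 10, 1 with Folr1 as index and 6 with both regions together, in place of 0. Among all genes, 10, 3 and 108 were then called in place of 0, and 1 with a pseudocount of 0.1.

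A shared number was not treated as a pairing of the regions, because the labels do not state one. Deviations correlated above 0.1 for 17 of 24 labels and not for all (-0.11 to 0.21, median 0.11). The median of -0.04 for other labels follows from this, since the deviations of a group sum to 0. That 22 of 24 were closest to their own label is a hint of pairing from the data. With the replicate block, 1 member in place of 0 was called for the change of the region difference from PWK 7 to 14 (Kl, limma adjusted p = 0.0363), among 1529 in place of 920 genes, and Aqp1 passed between regions at PWK 1 (limma adjusted p = 0.0260). For HT against WT the block gave 0 called genes in place of 1 (cortex PWK 1 and 14, hippocampus PWK 14) and of 2 (hippocampus PWK 1), and called no member.

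Numbers of called genes for HT against WT also moved in a model of 48 libraries, to 539 in place of 1 (cortex PWK 1), 1 in place of 3 (PWK 7), 6 in place of 1 (PWK 14), 76 in place of 2 (hippocampus PWK 1) and 2 in place of 1 (PWK 14), with no member among them. Without the filter they were 2 (cortex) and 0 (hippocampus) at PWK 14, and with a pseudocount of 10 there was 1 in the hippocampus at PWK 1. In WT libraries only, 5671 in place of 8589 genes differed between regions at PWK 1 and 6084 in place of 9273 at PWK 14, and 653 in place of 3669 (cortex) and 84 in place of 1631 (hippocampus) changed from PWK 7 to 14. With Folr1 as index 423 in place of 188 genes were called in the hippocampus.

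Leaving out each library in turn, members called ranged from 0 to 1 (cortex, PWK 7 to 14), 0 to 1 (region difference, PWK 7 to 14) and 0 to 2 (with Ttr, cortex). Signs turned in HT against WT at PWK 14 in the hippocampus for Ttr (-0.99 to 1.14), Kl (-0.51 to 0.49), Folr1 (-1.13 to 0.70), Aqp1 (-0.73 to 0.95), Otx2 (-0.53 to 0.96), Clic6 (-0.80 to 0.92), Kcnj13 (-0.70 to 1.1) and Slc4a5 (-0.92 to 1.24). They turned in the cortex at PWK 14 for Ttr (-1.64 to 1.63), Kl (-0.92 to 0.36), Clic6 (-1.06 to 0.51) and Kcnj13 (-0.78 to 0.19), at PWK 7 for Kl (-0.0936 to 0.118) and Kcnj13 (-0.0098 to 0.155), and at PWK 1 for Clic6 (-0.0428 to 0.258). None of these was called. The change of the region difference of Ttr from PWK 1 to 7 ran from -0.29 to 1.11, and the slope of Kcnj13 on Ttr in the cortex from -0.0102 to 0.207. The SD of Ttr ran from 1.71 to 2.40 (cortex) and from 2.06 to 2.48 (hippocampus). Numbers of genes called with Ttr in the hippocampus ran from 99 to 354. The causes were not tested.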
